A study of Mus musculus with 15 samples.

Results

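The genes described here are 10 integrin subunits of leukocytes: the alpha chains Itgax, Itgam, Itgal, Itgae, Itga4 and Itgav and the beta chains Itgb1, Itgb2, Itgb7 and Itgb8. They were chosen by gene symbol, as the probe set annotated to exactly that symbol, and all 10 were found among the 19938 genes measured. RNA of cells sorted out of mouse bone marrow was hybridised to 15 Affymetrix arrays, 1 sample each, for a progenitor stage and a later stage. The later stage was the Zbtb46-GFP+ cKit intermediate cell, with 3 arrays each from Batf3 KO, Id2 KO and WT mice. The earlier stage was the common dendritic cell progenitor (CDP), with 2 arrays each from the same 3 genotypes. All mice carried a GFP reporter of Zbtb46, a transcription factor of the classical dendritic cell (DC) lineage. The labels call the Id2 KO and WT animals chimeric mice and the Batf3 KO animals reporter mice, so host type and the Batf3 genotype cannot be told apart. They do not say which cells the chimeras still held of the host, nor whether replicates came from separate animals, so p-values measure the spread between these samples only.

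Integrins are cell surface receptors made of an alpha and a beta chain, and neither chain reaches the surface well alone. Itgb2 pairs with Itgax (CD11c), Itgam (CD11b) or Itgal (CD11a), which bind ICAM adhesion molecules or complement fragments. Itga4 pairs with Itgb1 or Itgb7 and binds VCAM and MAdCAM on vessel walls, Itgae (CD103) pairs with Itgb7 and binds E-cadherin, and Itgav with Itgb8 releases active TGF-beta. In DCs, CD11c is the general surface marker, CD11b marks the cDC2 subset and CD103 many tissue cDC1s.

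Replicate 1 of each Zbtb46-GFP+ group stood apart, and the labels give no reason. The median of all probe sets lay between 23.8 and 24.1 there, compared with 100.8 to 112.1 for the other 12 arrays, and 54.0% of probe sets held the same value on all 3. Levels and tests therefore come from the 12 arrays, 2 per group, with the replicate 1 values given apart. Against the labelled cell types, 7 of 8 committed DC genes were higher in Zbtb46-GFP+ cells than in CDPs of WT mice. In Batf3 KO 5 of 8 were higher, and in Id2 KO 6 of 8. The 8 include Zbtb46 and the targeted genes Batf3 and Id2. Of all genes 4.71% were called higher between these stages in WT, 3.87% in Batf3 KO and 3.84% in Id2 KO. Of 7 progenitor genes 4 (Cd34, Cd93, Csf1r and Mpo) were lower and 1 (Kit) was higher, in every genotype. In either direction 7.18% of all genes were called between stages in Batf3 KO, 6.82% in Id2 KO and 11.1% in WT. Zbtb46 itself differed between stages by 0.15 log2 units in Batf3 KO (adjusted p = 0.739), 0.20 in Id2 KO (adjusted p = 0.656) and 1.08 in WT cells (adjusted p = 0.000636). The targeted genes had a log2 difference from WT Zbtb46-GFP+ cells of -2.82 for Batf3 in Batf3 KO (adjusted p = 2.12e-05) and -3.13 for Id2 in Id2 KO (adjusted p = 0.000504). In CDPs neither was called, at -0.03 for Batf3 in Batf3 KO and -1.03 for Id2 in Id2 KO (both adjusted p = 1.0). Id2 rose between stages in Id2 KO cells too (log2 2.09, adjusted p = 0.00259), to 8.39 and 8.82 in Id2 KO Zbtb46-GFP+ cells, against 7.40 to 7.68 in WT CDPs. Xist, the X-inactivation RNA of female cells, was 5.06 to 5.71 on all knockout arrays of the 12 and 11.93 to 12.42 on the WT arrays, so sex pattern and genotype cannot be told apart there.

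Each subunit had 1 single-symbol probe set on the array. In the RefSeq gene order Itgam and Itgax stand side by side on chromosome 7 with no protein-coding gene between them. Itgal lies before Itgam, with 35 protein-coding genes between them. Itga4 and Itgav share chromosome 2, with 14 genes between them. RefSeq promoter windows (GRCm38.p6, 250 bases before to 50 after the annotated start) were held for 7 of the 10, and 5 are shown. Itgam, Itga4 and Itgb7 had a called rise between stages in every genotype, Itgax is the neighbour of Itgam and was not called in the Batf3 KO step, and Itgb8 had no called change. Capitals mark matches, on either strand, to TGANTCA (the site of AP-1 factors such as Batf3), CANNTG (the E-box of E proteins, which Id2 restrains) and GAGGAA (a core of PU.1, a myeloid factor). Positions count from 0 at the annotated start.
Itgax, chr7:128129300-128129599, plus strand: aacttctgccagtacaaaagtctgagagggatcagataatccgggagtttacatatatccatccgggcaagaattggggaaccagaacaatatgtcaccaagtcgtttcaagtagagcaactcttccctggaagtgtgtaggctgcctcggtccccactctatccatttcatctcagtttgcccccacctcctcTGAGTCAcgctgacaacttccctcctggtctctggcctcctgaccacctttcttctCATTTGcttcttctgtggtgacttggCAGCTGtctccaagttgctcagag
Itgam, chr7:128062390-128062689, plus strand: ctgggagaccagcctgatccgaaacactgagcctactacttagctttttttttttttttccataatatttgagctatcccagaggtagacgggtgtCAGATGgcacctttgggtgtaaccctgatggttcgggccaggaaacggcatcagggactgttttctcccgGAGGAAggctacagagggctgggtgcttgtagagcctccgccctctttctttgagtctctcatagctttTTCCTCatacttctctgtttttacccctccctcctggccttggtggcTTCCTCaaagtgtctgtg
Itga4, chr2:79255176-79255475, plus strand: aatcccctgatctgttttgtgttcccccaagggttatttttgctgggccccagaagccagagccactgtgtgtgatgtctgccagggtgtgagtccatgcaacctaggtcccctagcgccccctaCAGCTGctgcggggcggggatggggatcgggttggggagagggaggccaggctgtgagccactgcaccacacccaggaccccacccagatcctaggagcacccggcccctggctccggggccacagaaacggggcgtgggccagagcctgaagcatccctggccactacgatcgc
Itgb7, chr15:102231886-102232185, minus strand: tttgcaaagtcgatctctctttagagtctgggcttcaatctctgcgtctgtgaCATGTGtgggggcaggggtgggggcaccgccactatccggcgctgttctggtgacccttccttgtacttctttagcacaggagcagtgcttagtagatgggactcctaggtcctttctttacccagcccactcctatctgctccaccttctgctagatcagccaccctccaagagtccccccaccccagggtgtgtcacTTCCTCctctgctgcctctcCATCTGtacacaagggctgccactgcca
Itgb8, chr12:119238227-119238526, minus strand: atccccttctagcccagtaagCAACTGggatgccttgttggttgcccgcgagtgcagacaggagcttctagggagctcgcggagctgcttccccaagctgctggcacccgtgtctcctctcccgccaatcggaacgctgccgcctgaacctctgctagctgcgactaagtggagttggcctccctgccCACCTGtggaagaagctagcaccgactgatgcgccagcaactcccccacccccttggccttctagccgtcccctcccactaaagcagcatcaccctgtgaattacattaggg

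Of the 7 windows, the one AP-1 match was that of Itgax, at -56 to -50, and 7.81% of the 32851 RefSeq mouse promoters of that length hold one. Itgam had 3 PU.1 matches, starting at -84, -15 and 32, and no AP-1 match. PU.1 matches were in 4 of the 7 windows (Itgam, Itgav, Itgb1 and Itgb7), against 28.3% of all promoters. E-boxes were in 5 of 7, against 72.3%, and an interferon element, GAAANN directly followed by GAAA, in 0 of 7, against 3.44%. No matches overlapped each other. These are matches of letters in a short window and say nothing of binding.

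**Figure D1:**
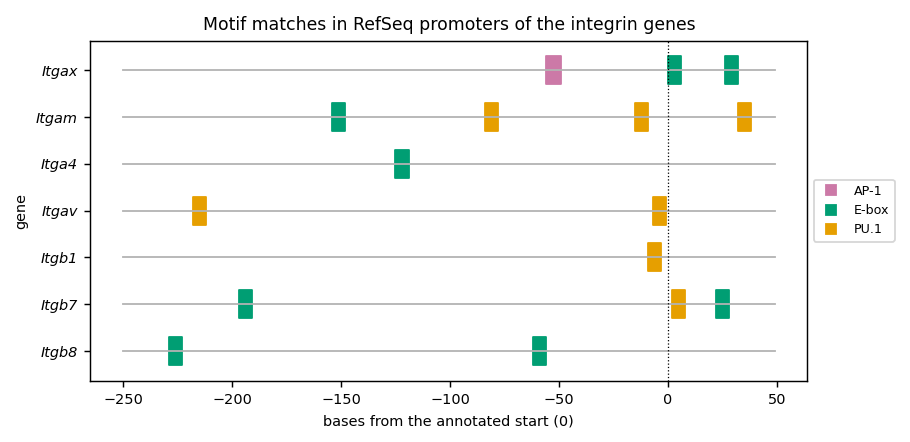
Positions of motif matches in the 7 RefSeq promoter windows. The horizontal axis is the distance in bases from the annotated start (dotted line), each grey line is 1 gene's window, and coloured boxes are AP-1, E-box and PU.1 matches. Itgax holds the single AP-1 match and Itgam 3 PU.1 matches.

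The first comparison asked which integrin genes change from the CDP to the Zbtb46-GFP+ stage, a change called the step here. Itgb2, Itgam, Itga4 and Itgb7 rose in every genotype, Itgax and Itgae rose in Id2 KO and WT cells, and Itgav and Itgb1 in WT cells. Itgal and Itgb8 did not pass the test in any genotype, and none of the 10 fell. In Batf3 KO cells 4 of 10 rose, while 3.87% of all genes were called higher and 7.18% in either direction by limma at a Benjamini-Hochberg adjusted p under 0.05. In Id2 KO cells 6 of 10 rose, against 3.84% of all genes called higher and 6.82% in either direction. In WT cells 8 of 10 rose, against 4.71% called higher and 11.1% in either direction. The median log2 change of the 10 was 0.56 in Batf3 KO, where that of all genes was 0.01, 0.75 in Id2 KO, where it was 0.01, and 1.07 in WT, where it was 0.03. The 2 stages did not overlap for 8 of the 10 in each genotype, where 44.8% of all genes in Batf3 KO, 41.7% in Id2 KO and 44.3% in WT were apart. With the 3 replicate 1 arrays added under a term of their own, the counts were again 4 in Batf3 KO, 6 in Id2 KO and 8 in WT. With all 15 arrays as labelled, no member was called in any step. In bulk RNA, a change in the share of cells that express a gene and a change in RNA per cell cannot be told apart.

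**Figure D2:**
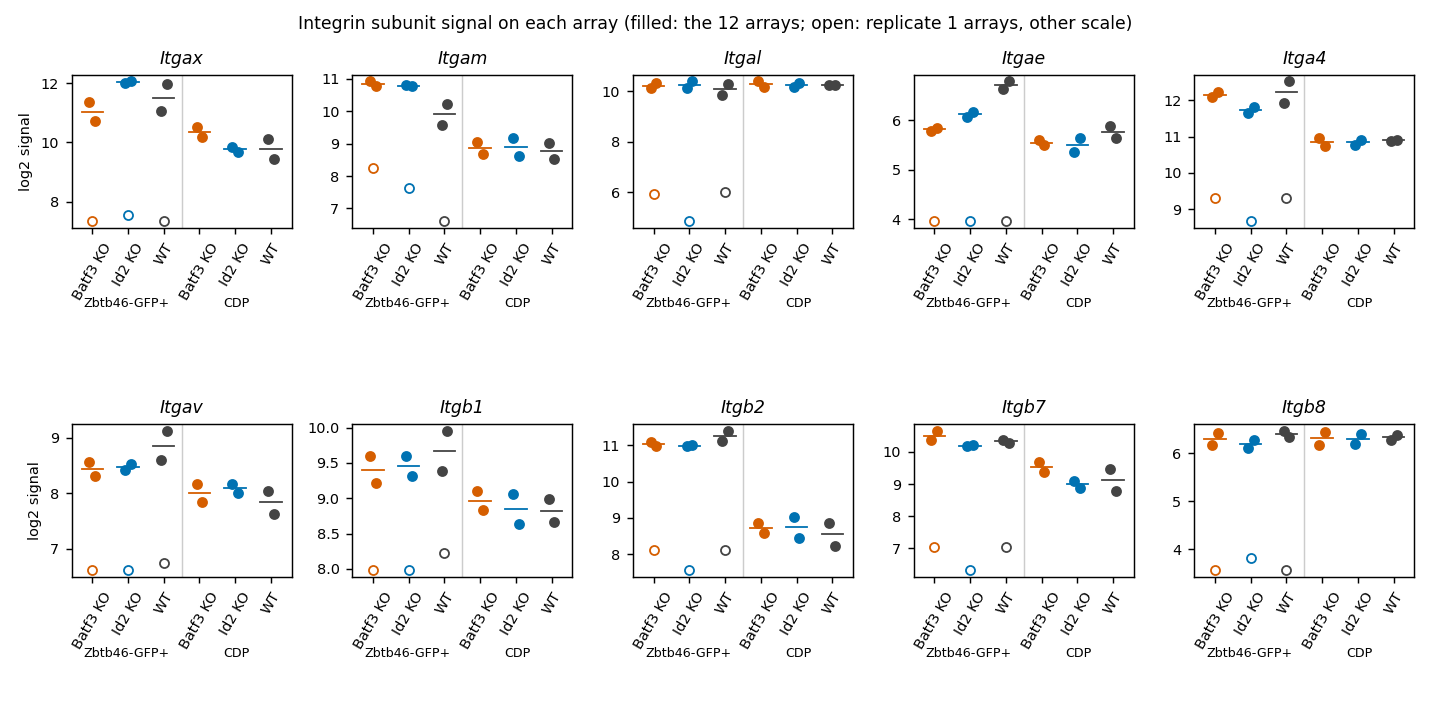
Log2 signal of the 10 integrin genes on each array, 1 panel per gene, with Zbtb46-GFP+ groups left of the line and CDP groups right of it. Filled points are the 12 arrays used for tests, short bars their group means, and open points the replicate 1 arrays on another scale. Itgb2, Itga4 and Itgam are higher in every Zbtb46-GFP+ group of the 12 than in the CDPs, while Itgal and Itgb8 are level.

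Among the chains of the beta2 family, Itgb2 had the largest step in Batf3 KO and WT. Its log2 signal measured 11.09 and 10.97 for Batf3 KO, 10.97 and 11 for Id2 KO and 11.12 and 11.39 for WT Zbtb46-GFP+ cells. CDP arrays gave 8.85 and 8.59 for Batf3 KO, 9.03 and 8.45 for Id2 KO and 8.86 and 8.24 for WT. Every later-stage array was above every CDP array, and the knockout and WT arrays lay close within a stage. The step was 2.31 log2 units in Batf3 KO, a 4.96-fold rise (SE 0.23, adjusted p = 0.000158, limma). It was 2.25 in Id2 KO (adjusted p = 0.000251) and 2.70 in WT (6.51-fold, adjusted p = 2.88e-05). These 3 calls held with each of the 12 arrays left out in turn.

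Itgax, the alpha chain CD11c, was already well above the array median in CDPs. The log2 signal was 11.35 and 10.73 for Batf3 KO, 12 and 12.06 for Id2 KO and 11.05 and 11.97 for WT Zbtb46-GFP+ cells. The CDPs had 10.53 and 10.18 for Batf3 KO, 9.86 and 9.67 for Id2 KO and 10.11 and 9.43 for WT. Ordered by mean, Id2 KO stood first among the later cells, then WT, whose range overlapped that of Batf3 KO below it. Among CDPs the Batf3 KO arrays were both above those of the other genotypes. The step was 0.68 log2 units in Batf3 KO, with a 95% interval of -0.00 to 1.37, and did not pass the test (SE 0.31, adjusted p = 0.281). It was 4.79-fold in Id2 KO (log2 2.26, adjusted p = 0.00147) and 3.34-fold in WT (log2 1.74, adjusted p = 0.0041). The difference of the Batf3 KO step from the WT step, -1.06 log2 units with an interval of -2.03 to -0.09, did not pass it either (adjusted p = 1.0).

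Itgam, the alpha chain CD11b, had WT as the lowest of the later groups. Log2 signals were 10.92 and 10.78 for Batf3 KO, 10.80 and 10.79 for Id2 KO and 9.59 and 10.24 for WT Zbtb46-GFP+ cells. The CDP values were 9.04 and 8.68 for Batf3 KO, 9.17 and 8.63 for Id2 KO and 9.02 and 8.54 for WT. All 4 later knockout arrays were above both WT arrays, and the CDP groups overlapped. The gene rose 3.96-fold with stage in Batf3 KO (log2 1.99, SE 0.25, adjusted p = 0.000774) and 3.72-fold in Id2 KO (log2 1.90, adjusted p = 0.00115). The WT step was 2.20-fold (log2 1.14, adjusted p = 0.0133), a call lost without WT CDP replicate 2 (adjusted p = 0.0919) or WT Zbtb46-GFP+ replicate 3 (0.0984). Of 9 neutrophil genes, markers of granulocytes, which carry CD11b, 4 (Camp, Ngp, S100a8 and S100a9) rose with stage in both knockouts, and 1 (Elane) fell in WT. Of all genes 3.87% were called higher in the Batf3 KO step and 3.84% in Id2 KO, and 11.1% in either direction in WT. The median log2 step of the 9 was 2.05 in Batf3 KO, 1.76 in Id2 KO and 1.05 in WT. None of the 9 passed the interaction in Batf3 KO, against 0.0953% of all genes, or in Id2 KO, against 0.321%. Between Zbtb46-GFP+ groups 0 of 9 were called in Batf3 KO against WT, where 0.336% of all genes were. In Id2 KO 1 was called (Elane, higher), where 1.81% of all genes were. The log2 of the summed signal of the 9 was 14.34 to 14.84 in Batf3 KO, 15.28 to 15.33 in Id2 KO and 13.93 to 14.10 in WT Zbtb46-GFP+ cells. Among CDPs it was 12.09 to 12.82 in Batf3 KO, 12.71 to 14.22 in Id2 KO and 12.43 to 13.38 in WT. Their part in the Itgam values was not tested.

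Itgal, the alpha chain of the third beta2 integrin, lymphocyte function antigen, was level throughout. Array values, in log2, were 10.12 and 10.33 for Batf3 KO, 10.15 and 10.39 for Id2 KO and 9.86 and 10.30 for WT Zbtb46-GFP+ cells. CDPs measured 10.39 and 10.16 for Batf3 KO, 10.19 and 10.35 for Id2 KO and 10.25 and 10.25 for WT. Its 6 group means spanned 0.20 log2 units, and every neighbouring pair in their order overlapped. The step was -0.05 in Batf3 KO, -0.00 in Id2 KO and -0.17 in WT. The WT interval of -0.55 to 0.21 leaves out a rise of the size measured for its partner Itgb2.

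Itga4 was bright on all 12 arrays and rose in every genotype. Its log2 signal was 12.08 and 12.22 for Batf3 KO, 11.64 and 11.81 for Id2 KO and 11.93 and 12.52 for WT Zbtb46-GFP+ cells. At the CDP stage it was 10.95 and 10.74 for Batf3 KO, 10.77 and 10.91 for Id2 KO and 10.87 and 10.92 for WT. The stages were fully apart, and both later Id2 KO arrays lay below those of the other genotypes. The step was 2.47-fold in Batf3 KO (log2 1.30, SE 0.18, adjusted p = 0.0014). In Id2 KO it was 1.85-fold (log2 0.88, adjusted p = 0.0141), a call lost without Id2 KO CDP replicate 1 (adjusted p = 0.096) or Zbtb46-GFP+ replicate 2 (0.0664) or 3 (0.127). It was 2.51-fold in WT (log2 1.33, adjusted p = 0.00079).

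Its partner Itgb7, the beta chain of gut homing and the partner of CD103, rose by like amounts. Its log2 signal was 10.37 and 10.65 for Batf3 KO, 10.18 and 10.21 for Id2 KO and 10.37 and 10.28 for WT Zbtb46-GFP+ cells. The CDP arrays read 9.68 and 9.37 for Batf3 KO, 9.09 and 8.89 for Id2 KO and 9.46 and 8.79 for WT. The Batf3 KO mean was the highest in both stages, and its CDP range overlapped that of WT. The step was 0.98 log2 units in Batf3 KO (SE 0.21, adjusted p = 0.0146), 1.2 in Id2 KO (adjusted p = 0.00527) and 1.2 in WT (adjusted p = 0.00326). Without Batf3 KO CDP replicate 2 or Batf3 KO Zbtb46-GFP+ replicate 3, the Batf3 KO call was lost (adjusted p = 0.12 and 0.129).

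Itgb1, the other partner of Itga4 and the common beta chain of matrix receptors, changed less. Its log2 signal was 9.60 and 9.21 for Batf3 KO, 9.60 and 9.31 for Id2 KO and 9.38 and 9.95 for WT Zbtb46-GFP+ cells. On CDP arrays it was 9.10 and 8.83 for Batf3 KO, 9.06 and 8.64 for Id2 KO and 8.99 and 8.66 for WT. The 3 later groups overlapped each other, as did the 3 CDP groups. The steps of 0.44 in Batf3 KO (adjusted p = 0.387) and 0.61 in Id2 KO (adjusted p = 0.185) did not pass. The WT step of 0.84 log2 units just passed the test (SE 0.23, adjusted p = 0.0408), and its call was kept with 5 of the 12 arrays left out singly. It was lost without WT CDP replicate 1 or 2, WT Zbtb46-GFP+ replicate 3, either Batf3 KO CDP array or either Id2 KO Zbtb46-GFP+ array, with adjusted p-values of 0.053 to 0.23.

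Itgae, the alpha chain CD103, was dim, below the array median on 11 of the 12 arrays. Its log2 signal was 5.79 and 5.84 for Batf3 KO, 6.07 and 6.17 for Id2 KO and 6.62 and 6.78 for WT Zbtb46-GFP+ cells. In CDPs it was 5.59 and 5.50 for Batf3 KO, 5.35 and 5.65 for Id2 KO and 5.89 and 5.65 for WT. The 3 later groups were apart, Batf3 KO below Id2 KO and Id2 KO below WT, and the Batf3 KO range overlapped that of WT CDPs. The step was 0.27 log2 units in Batf3 KO (SE 0.14, adjusted p = 0.386), 0.62 in Id2 KO (adjusted p = 0.0254) and 0.93 in WT (adjusted p = 0.00166). The Id2 KO call was lost with 75th percentile centring (adjusted p = 0.0986) and without Id2 KO CDP replicate 1 (0.195) or Zbtb46-GFP+ replicate 2 (0.112) or 3 (0.185).

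Itgav, the alpha chain of vitronectin receptors, rose by the test in WT, and its beta partner Itgb8 did not pass in any genotype. The Itgav log2 signal was 8.56 and 8.31 for Batf3 KO, 8.41 and 8.52 for Id2 KO and 8.58 and 9.12 for WT Zbtb46-GFP+ cells. In CDPs it was 8.16 and 7.85 for Batf3 KO, 8.17 and 8.0 for Id2 KO and 8.04 and 7.63 for WT. Both WT arrays were above the other later arrays, the lower of them narrowly. The steps of 0.43 in Batf3 KO (adjusted p = 0.302) and 0.38 in Id2 KO (adjusted p = 0.425) did not pass, and neither did their differences from the WT step. The WT step was 2.02-fold (log2 1.01, SE 0.20, adjusted p = 0.00805), lost without WT CDP replicate 2 (adjusted p = 0.0633) or WT Zbtb46-GFP+ replicate 3 (0.064).
Itgb8 was below the array median on all 12 arrays. It measured 6.17 and 6.41 for Batf3 KO, 6.11 and 6.27 for Id2 KO and 6.46 and 6.33 for WT Zbtb46-GFP+ cells. In CDPs it measured 6.17 and 6.44 for Batf3 KO, 6.20 and 6.39 for Id2 KO and 6.28 and 6.38 for WT. All neighbouring group means overlapped in range, and the step was -0.01 in Batf3 KO, -0.11 in Id2 KO and 0.07 in WT (interval -0.26 to 0.39).

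**Figure D3:**
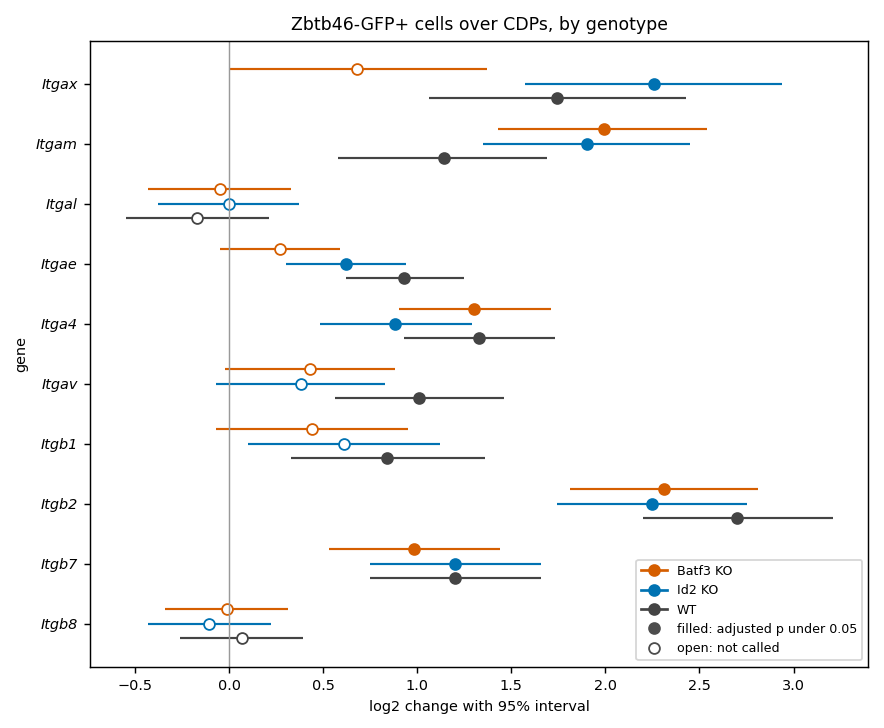
Log2 change of each integrin gene in Zbtb46-GFP+ cells over CDPs, with 95% intervals, for Batf3 KO, Id2 KO and WT. Filled points passed an adjusted p under 0.05. Itgb2 stands at 2.25 to 2.70 in all 3 genotypes, Itgax ranges from 0.68 in Batf3 KO to 2.26 in Id2 KO, and Itgal and Itgb8 lie between -0.17 and 0.07.

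The second comparison set each knockout against WT within the Zbtb46-GFP+ stage. Without Batf3, Itgae was lower and no other integrin gene of the 10 was called, against 0.226% of all genes called lower and 0.336% in either direction. Without Id2 none of the 10 was called, against 1.81% of all genes. Of the 10, 3 had an unadjusted p under 0.05 (Itgam, Itgae and Itga4), as did 1852 of all 19938 genes. The groups did not overlap for 5 of 10 in Batf3 KO (Itgam, Itgae, Itgav, Itgb2 and, by a margin lost in rounding, Itgb7), against 24.3% of all genes, and for 8 of 10 in Id2 KO, against 35.2%. Both comparisons share the WT arrays, so their values are given side by side and not as independent results.

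Itgae was lower without Batf3 (log2 -0.88, SE 0.14, interval -1.2 to -0.56, adjusted p = 0.0294). Without Id2 its difference from WT was -0.58 (interval -0.90 to -0.26, adjusted p = 0.0818). The Batf3 KO call was kept with 4 of the 12 arrays left out singly. It was lost without any of the 4 Batf3 KO arrays, either WT Zbtb46-GFP+ array or either Id2 KO Zbtb46-GFP+ array, with adjusted p-values of 0.0544 to 0.323. It was also lost with 75th percentile centring (adjusted p = 0.134) and with the replicate 1 arrays under their own term (0.462), where all 3 held the same Itgae value of 3.97. Genes of cDC1s, the subset that carries CD103 in tissues, moved the same way. In Batf3 KO 5 of 9 fell (Batf3, Clec9a, Gcsam, Tlr3 and Xcr1), and in Id2 KO 8 of 9. Batf3 is the gene deleted in Batf3 KO, so its fall there was fixed by the genotype. Of all genes 0.226% were called lower in Batf3 KO, and 1.81% in either direction in Id2 KO. The log2 of the summed signal of the 9, Batf3 included, was 13.91 to 13.94 in Batf3 KO, 13.81 to 13.85 in Id2 KO and 14.77 to 14.95 in WT Zbtb46-GFP+ cells. Their part in the Itgae values was not tested.

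Itgam was above WT on every knockout array of the later stage. The difference was 0.93 in Batf3 KO (SE 0.25, interval 0.38 to 1.48, adjusted p = 0.353) and 0.88 in Id2 KO (interval 0.33 to 1.43, adjusted p = 0.148), so neither passed. Both passed after quantile normalization (adjusted p = 0.0409 and 0.0212). On the replicate 1 arrays Itgam was 8.25 in Batf3 KO, 7.63 in Id2 KO and 6.62 in WT, the same order on another scale. With those arrays under their own term the differences were 1.16 (adjusted p = 0.0732) and 0.92 (0.0703). Of the cDC2 genes, the subset that carries CD11b, 0 of 7 were called in either knockout, and the log2 of their summed signal was 13.21 to 13.52 in Batf3 KO, 12.96 to 13.23 in Id2 KO and 11.77 to 12.84 in WT. Of the monocyte and macrophage genes 7 of 9 were measured, of which Adgre1 and F13a1 were higher in Batf3 KO. Csf1r and F13a1 were higher in Id2 KO, where Ccr2 was lower. Of all genes 0.336% were called in either direction in Batf3 KO against WT, and 1.81% in Id2 KO. The log2 of the summed signal of the 7 measured was 13.51 to 13.68 in Batf3 KO, 13.31 to 13.34 in Id2 KO and 13.30 to 13.53 in WT Zbtb46-GFP+ cells. Their part in the Itgam values was not tested.

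For Itgax, whose promoter window holds the AP-1 match, the difference from WT was -0.48 log2 units in Batf3 KO (interval -1.16 to 0.21, adjusted p = 1.0) and 0.51 in Id2 KO (interval -0.17 to 1.2, adjusted p = 0.785). Set against each other, Id2 KO was 0.99 log2 units above Batf3 KO, a 1.99-fold difference with arrays apart (interval 0.30 to 1.68, adjusted p = 0.382). Genes of plasmacytoid DCs (pDCs), which carry little CD11c, were higher in Id2 KO than in WT for 6 of 8. In Batf3 KO 0 of 8 were called. Of all genes 1.81% were called in either direction in Id2 KO against WT, and 0.336% in Batf3 KO. The log2 of the summed signal of the 8 pDC genes was 12.58 to 13.20 in Batf3 KO, 14.02 to 14.16 in Id2 KO and 11.96 to 12.47 in WT Zbtb46-GFP+ cells. Their part in the Itgax values was not tested.

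The Itga4 difference from WT was -0.07 log2 units in Batf3 KO (adjusted p = 1.0) and -0.50 in Id2 KO (interval -0.91 to -0.10, adjusted p = 0.329). Without WT Zbtb46-GFP+ replicate 2 the Id2 KO difference was -0.80 and passed (adjusted p = 0.0466). Itgav differed by -0.41 in Batf3 KO and -0.39 in Id2 KO, with intervals that reach 0.04 and 0.06, and did not pass. Itgb2, Itgb1, Itgb7, Itgal and Itgb8 differed from WT by -0.27 to 0.19 log2 units, and none passed. For Itgb2 the intervals were -0.73 to 0.28 in Batf3 KO and -0.77 to 0.23 in Id2 KO.

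**Figure D4:**
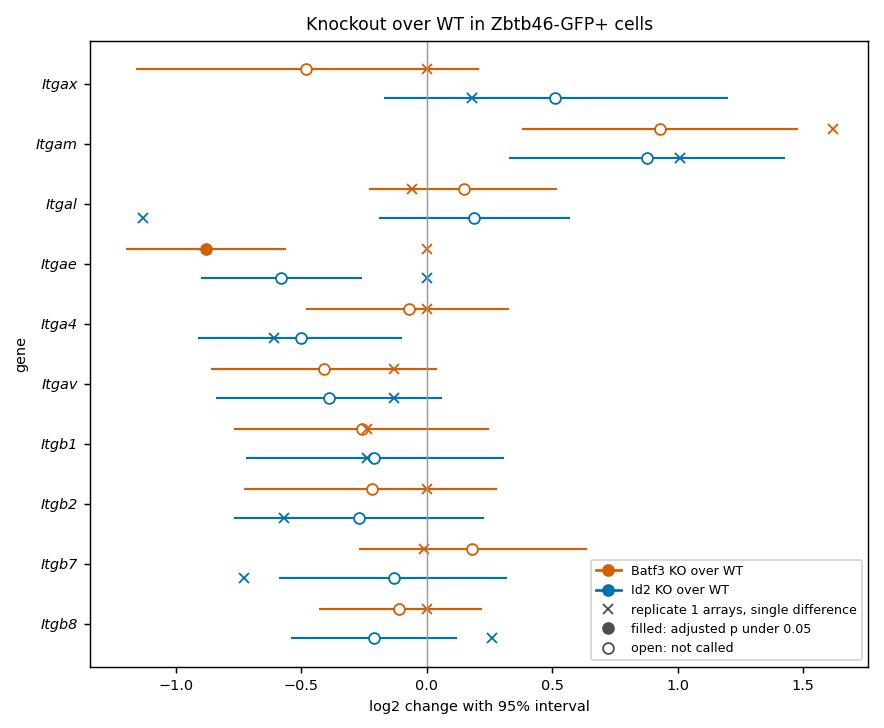
Log2 difference from WT of each integrin gene in Zbtb46-GFP+ cells of either knockout, with 95% intervals from the 12 arrays, and crosses for the single difference on the replicate 1 arrays. Filled points passed an adjusted p under 0.05. Itgae in Batf3 KO, at -0.88, is the only filled point, and the Itgam points are open, at 0.93 for Batf3 KO and 0.88 for Id2 KO.

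In the CDPs none of the 10 differed from WT by the test in Batf3 KO, against 0.0502% of all genes, or in Id2 KO, against 0.0251%. None had an unadjusted p under 0.05 there, where 257 of all 19938 genes did in Batf3 KO and 126 in Id2 KO. The largest difference was that of Itgax in Batf3 KO CDPs, 0.58 log2 units above WT with an interval of -0.10 to 1.27. The arrays were apart for 2 of 10 (Itgax and Itgae) in Batf3 KO, against 18.0% of all genes, and for 0 of 10 in Id2 KO, against 13.1%. Between the knockouts in Zbtb46-GFP+ cells none of the 10 was called, against 0.592% of all genes. Itgax and Itga4 had an unadjusted p under 0.05, as did 1082 of all 19938 genes. The arrays of the knockouts were apart for 4 of 10 (Itgax, Itgae, Itga4 and Itgb7), against 32.3% of all genes.

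Whether a knockout changes the size of the step was tested as an interaction. None of the 10 passed in Batf3 KO, against 0.0953% of all genes, or in Id2 KO, against 0.321%. With Batf3 deleted, Itgax (-1.06), Itgae (-0.66, interval -1.11 to -0.21) and Itgam (0.85, interval 0.07 to 1.63) had an unadjusted p under 0.05. In Id2 KO, Itgav did (-0.64, interval -1.27 to -0.00). At that unadjusted level 383 of all 19938 genes passed in the Batf3 KO interaction and 960 in the Id2 KO interaction. The different numbers of members called per genotype are therefore not shown to be differences between genotypes.

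Of 18 further integrin subunits, all measured, 2 rose and 1 fell with stage in Batf3 KO, 1 rose and 2 fell in Id2 KO, and 2 rose and 1 fell in WT. Of all genes 7.18% were called in either direction in the Batf3 KO step, 6.82% in Id2 KO and 11.1% in WT. None of the 18 was higher in a knockout than in WT Zbtb46-GFP+ cells. In Batf3 KO 1 was lower, against 0.336% of all genes called, and in Id2 KO 2 were, against 1.81%. The median WT change of these 18 was 0.08 log2 units. Itgad, the next gene after Itgax on chromosome 7 and a further partner of Itgb2, differed by -0.13 in WT and was not called. Itga1, the alpha chain of a collagen receptor, measured 8.67 and 8.72 for Batf3 KO, 6.87 and 7.05 for Id2 KO and 8.76 and 8.99 for WT Zbtb46-GFP+ cells. In CDPs it measured 7.85 and 7.86 for Batf3 KO, 7.70 and 8.17 for Id2 KO and 7.53 and 7.59 for WT. It was thus above its CDP level in the later Batf3 KO and WT cells and below it in the later Id2 KO cells. The step was 0.84 log2 units in Batf3 KO (adjusted p = 0.00892), -0.98 in Id2 KO (adjusted p = 0.00403) and 1.32 in WT (adjusted p = 0.000366). In Zbtb46-GFP+ cells Itga1 differed by -1.92 in Id2 KO from WT (adjusted p = 0.000142), and the interaction of -2.29 passed (adjusted p = 0.00164). With the replicate 1 arrays under their own term the interaction did not (adjusted p = 0.053), nor did the steps in Batf3 KO (0.101) and Id2 KO (0.0806).

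Itga8, the alpha chain of a receptor for RGD matrix proteins, was high in the later WT cells alone among the 6 groups. It measured 5.75 and 6.04 for Batf3 KO, 5.69 and 5.75 for Id2 KO and 6.92 and 7.74 for WT Zbtb46-GFP+ cells, and 5.57 to 6.16 over all 6 CDP arrays. The WT step was 1.69 log2 units (adjusted p = 0.00131). Its difference from WT was -1.44 in Batf3 KO (adjusted p = 0.0433) and -1.61 in Id2 KO (adjusted p = 0.00759). The Batf3 KO call was kept with 3 of the 12 arrays left out singly and lost with 75th percentile centring (adjusted p = 0.127). The Id2 KO call was kept with 10 of the 12. Itgb5, a beta partner of Itgav, fell with stage by 1.25 log2 units in Batf3 KO, 1.13 in Id2 KO and 0.84 in WT, the WT call being lost with 75th percentile centring (adjusted p = 0.059). Itgb2l, a beta2-like gene of neutrophils in mice, rose by 0.73 in Batf3 KO (adjusted p = 0.0275, kept with 9 of the 12 arrays left out singly and 0.0893 with 75th percentile centring) and by 1.06 in Id2 KO (adjusted p = 0.00384). Its WT step of 0.42 did not pass.

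**Figure D5:**
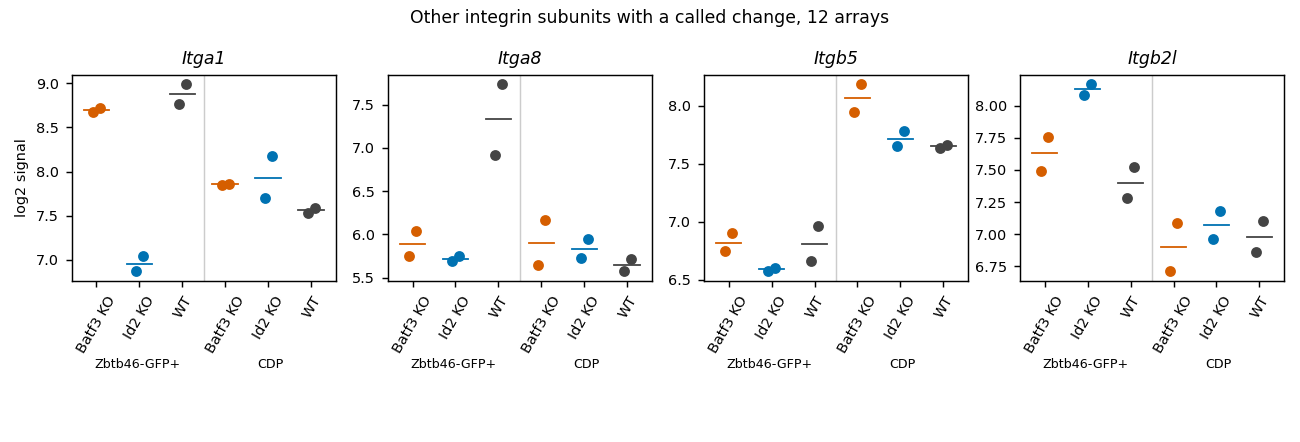
Log2 signal on the 12 arrays for the 4 integrin genes outside the 10 with a called change, Zbtb46-GFP+ groups left of the line and CDPs right of it, short bars for group means. Itga1 is 6.87 to 7.05 in Id2 KO Zbtb46-GFP+ cells, below its CDP values, and Itga8 is 6.92 to 7.74 in the later WT cells, above all other groups.

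Genes that switch integrins on or tie them to actin were measured for 35 of 38 listed. With stage 6 rose and 0 fell in Batf3 KO (median log2 change 0.23), 5 rose and 1 fell in Id2 KO (median 0.28), and 7 rose and 2 fell in WT (median 0.19). The shares of all genes called in these steps were 7.18% in Batf3 KO, 6.82% in Id2 KO and 11.1% in WT. Between Zbtb46-GFP+ groups 1 was lower in Batf3 KO than in WT, against 0.336% of all genes called. In Id2 KO 2 were higher and 2 lower, against 1.81%. Rasgrp3, an exchange factor for the Ras and Rap GTPases, measured 4.70 and 4.93 for Batf3 KO, 4.94 and 5.37 for Id2 KO and 8.23 and 8.91 for WT Zbtb46-GFP+ cells. All 6 CDP arrays lay between 4.72 and 4.98, so the gene was high in the later WT cells alone. Since those CDP values lay below the array medians, no fold is given. Its log2 step was 3.72 in WT (adjusted p = 2.53e-06), and in Zbtb46-GFP+ cells it differed from WT by -3.75 log2 units in Batf3 KO (adjusted p = 1.39e-05) and -3.42 in Id2 KO (adjusted p = 2.78e-05). Fgr, a Src-family kinase downstream of Itgb2 in myeloid cells, rose by 2.32 log2 units in Batf3 KO, 3.41 in Id2 KO and 2.39 in WT. Rasgrp4 (2.16, 1.88 and 2.51 in the same genotypes) and Zyx, the focal adhesion protein zyxin (1.19, 1.41 and 1.36), rose in all 3 as well. The Fgr call in Batf3 KO was kept with 10 of the 12 arrays left out singly, and the Rasgrp4 call in Id2 KO with 11. Rasgrp2, the exchange factor that activates Rap in platelets and neutrophils, was 1.48 higher in Id2 KO than in WT Zbtb46-GFP+ cells (adjusted p = 0.00336, or 0.105 with the replicate 1 arrays under their own term). Fyb, an adaptor of T cell and platelet adhesion, was 1.17 higher (adjusted p = 0.0405), a call kept with 7 of the 12 arrays left out singly. Parvb, a partner of integrin-linked kinase, differed there by -1.05 (adjusted p = 0.00334, or 0.214 under that term).

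Of 23 listed integrin ligands and surface partners 21 were measured, and their median log2 step was 0.12 in Batf3 KO, 0.08 in Id2 KO and 0.13 in WT. In the Batf3 KO step 2 rose and 2 fell, in Id2 KO 3 rose and 2 fell, and in WT 4 rose and 2 fell. The steps called 7.18% of all genes in Batf3 KO, 6.82% in Id2 KO and 11.1% in WT. Between Zbtb46-GFP+ groups 0 of 21 differed in Batf3 KO from WT, against 0.336% of all genes. In Id2 KO 1 was higher and 1 lower, against 1.81%. Cd9, a tetraspanin that sits beside integrins in the membrane, rose by 2.36 log2 units in Batf3 KO, 1.15 in Id2 KO and 2.67 in WT. Its Id2 KO step was kept with 9 of the 12 arrays left out singly, with changes of 0.65 to 1.65. Cd9 differed by -1.38 in Id2 KO from WT Zbtb46-GFP+ cells (adjusted p = 0.0246, kept with 8 of the 12 arrays left out singly). Cdh1, E-cadherin and the ligand of CD103, measured 6.56 and 6.84 for Batf3 KO, 9.17 and 9.62 for Id2 KO and 6.68 and 6.89 for WT Zbtb46-GFP+ cells. On the 6 CDP arrays it was 6.26 to 6.95, so both later Id2 KO arrays stood above all others. It was 6.11-fold higher in Id2 KO than in WT Zbtb46-GFP+ cells (log2 2.61, adjusted p = 4.35e-05). Icam2, a ligand of Itgal with Itgb2, fell with stage by 0.79 log2 units in Batf3 KO (adjusted p = 0.0224, or 0.0595 with 75th percentile centring), 1.59 in Id2 KO and 1.03 in WT, while Icam1 rose in WT (0.93, adjusted p = 0.0151, kept with 9 of the 12 arrays left out singly). Mfge8, a ligand of Itgav, fell by 0.94 in Batf3 KO, 0.73 in Id2 KO and 0.97 in WT, the Id2 KO call being lost without any of 3 single arrays (adjusted p = 0.0919 to 0.128).

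Of 19 listed TGF-beta genes, all measured, 1 rose with stage in Batf3 KO (Tgfbr2) and 1 fell in Id2 KO (Smad3). In WT 2 rose (Skil and Tgfbr2) and 2 fell (Smad3 and Ltbp3). The median log2 step of the 19 was 0.12 in Batf3 KO, 0.09 in Id2 KO and 0.14 in WT. In WT 4 of 19 were thus called, against 11.1% of all genes. The 1 of 19 in Batf3 KO stood against 7.18% of all genes, and the 1 of 19 in Id2 KO against 6.82%. The WT call of Tgfbr2 was kept with 3 of the 12 arrays left out singly and lost with a variance trend (adjusted p = 0.0613). That of Ltbp3 (log2 -0.53, adjusted p = 0.0195) was kept with 9 and lost with 75th percentile centring (0.269) and quantile normalization (0.0856). None was called between either knockout and WT in Zbtb46-GFP+ cells. The largest called change was that of Skil, a Smad repressor, at 1.2 log2 units in WT (adjusted p = 0.0347, kept with 7 of the 12 arrays left out singly). Smad3, a signal carrier of the TGF-beta receptor, differed by -1.02 in Id2 KO (adjusted p = 0.0164) and -0.93 in WT (adjusted p = 0.0174). Its Id2 KO call was kept with 8 of the 12 arrays left out singly (changes of -1.12 to -0.92). The WT call was kept with 10 (changes of -1.14 to -0.72).

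The genes most like each integrin over the 12 arrays were found by Pearson correlation among 1566 genes whose group means spanned at least 1 log2 unit. These are descriptions over arrays that share genotype and stage. For Itgb2 they were Plbd1 (r = 0.997), P2ry6 (0.993) and Nabp1 (0.992), and for Itga4 they were Hlcs (0.986), Krt80 (0.984) and Tbc1d9 (0.983). Itgb7 was most like Dipk1a (0.979), Eps15 (0.978) and Anxa6 (0.977). Itgae was most like Strip2 (0.947), Batf3 itself (0.944) and P2ry14 (0.936), and Itgax most like Entpd1 and Fgd2 (both 0.967) and St3gal1 (0.964). Itgam was most like L1cam (0.973) and 2 genes known by clone names, 6430548M08Rik (0.971) and A530064D06Rik (0.97). For Itgav they were Slc8b1 (0.97), Ly75 (0.968), the uptake receptor DEC-205, and Efr3a (0.96). Itgal, Itgb1 and Itgb8 spanned under 1 log2 unit and were not compared.

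On the replicate 1 arrays, 5 of the 10 (Itgax, Itgae, Itga4, Itgb2 and Itgb8) held the same value in Batf3 KO and WT. Itgax was 7.35 in Batf3 KO, 7.53 in Id2 KO and 7.35 in WT, and Itga4 9.30 in Batf3 KO, 8.68 in Id2 KO and 9.30 in WT. Itgb2 was 8.13 in Batf3 KO, 7.56 in Id2 KO and 8.13 in WT, and Itgb7 was 7.03, 6.31 and 7.04 in the same genotypes. Itgal, level on the other arrays, was 5.94 in Batf3 KO, 4.87 in Id2 KO and 6.0 in WT. The largest knockout difference on these arrays was that of Itgam in Batf3 KO, 1.62 log2 units. With 1 array per genotype there is no test.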

How the data were processed

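Total RNA of sorted bone marrow cells was labelled with an Affymetrix WT Pico kit, per the labels' protocols. The deposited values are probe set intensity on a linear scale after RMA in Affymetrix Expression Console, per the submitters' processing notes, with versions not given in the sources used here. Log2 was taken first. Each array held 28853 probe sets: 21789 had 1 gene symbol in the platform annotation, 1621 several and 5443 none, and 1 probe set per symbol (highest mean) gave 19938 genes. Itgam is also on 3 probe sets shared with another gene, not used. The number of arrays limits precision.

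limma 3.58.1 (R 4.3.3) fitted 6 group means to the 12 arrays (6 residual degrees of freedom), with empirical Bayes, two-sided, and Benjamini-Hochberg adjustment over all genes in each of 10 comparisons at 0.05. The procedure was tested on simulated data. Gene names follow a rule: all 10 members, Batf3, Id2 and Zbtb46, up to 4 called genes per list and comparison (largest change first), and the 3 most correlated genes of members spanning at least 1 log2 unit. Itgad and the marker and sex genes were added as context. Members, lists and the use of 12 arrays were chosen with earlier results of these data known. Alternatives were other array sets, 75th percentile centring, quantile normalization, a floor of 6 on mean log2 signal, a variance trend, all probe sets, the replicate number as a block and each array left out. Promoters were from RefSeq.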

Additional observations from a re-analysis of the deposited data

Results flagged for a closer look

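5 interactions of genes around the integrins passed the test, meaning that the change between CDPs and Zbtb46-GFP+ cells differed between a knockout and WT (limma, adjusted over all genes, 2 arrays per group). Rasgrp3 differed by -3.73 log2 units in Batf3 KO (adjusted p = 0.000941) and by -3.38 in Id2 KO (adjusted p = 0.00152). Itga1 differed by -2.29 in Id2 KO (adjusted p = 0.00164) and Cdh1 by 2.25 (adjusted p = 0.00538). Parvb differed by -1.15 in Id2 KO (adjusted p = 0.0419), a call kept with 1 of the 12 arrays left out singly. With the replicate 1 arrays under their own term the signs held and none passed. Rasgrp3 then differed by -2.88 in Batf3 KO (adjusted p = 0.858) and -2.57 in Id2 KO (0.405), Itga1 by -1.95 (0.053), Cdh1 by 1.49 (1.0) and Parvb by -0.80 (1.0).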

How the results depend on the processing

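The 19 called member comparisons were each checked in the refits other than that of 15 arrays as labelled. Of these 377 checks of a call in a refit, 346 kept the call, 31 lost it and 0 changed sign. The checks reuse the same arrays and are not independent. Counts of members called with each array left out ran from 3 to 4 for the Batf3 KO step, 4 to 6 for Id2 KO, 5 to 8 for WT, and 0 to 1 for each knockout against WT in Zbtb46-GFP+ cells. WT gave 5 without WT CDP replicate 2 or WT Zbtb46-GFP+ replicate 3. With 15 arrays as labelled, 0 members were called in each step and in Batf3 KO against WT, 0 had an unadjusted p under 0.05, and at that level 214 genes in all passed in the WT step. There the changes reversed to -0.10 (Itgae), -0.13 (Itga4), -0.09 (Itgb7), -0.08 (Cd9) and -0.00 (Vcam1) in the Id2 KO step. They reversed to -0.18 (Itgb7), -0.27 (Itga1), -0.19 (Parvb), -0.19 (Tgfbr2) and -0.03 (Zyx) in the Batf3 KO step, and to -0.24 (Icam1) and -0.39 (Tgfbr2) in the WT step. The cause was not tested. For Batf3 KO against WT, the 1 call became 0 with a term for the 3 arrays, with 75th percentile centring and with the signal floor of 6, which leaves Itgae out, and 2 after quantile normalization. Id2 KO against WT gave 1 after quantile normalization. Same-numbered arrays deviated together among CDPs (residual correlations 0.53 to 0.683, 6 pairs) and between Batf3 KO and Id2 KO Zbtb46-GFP+ cells (0.477, 2 pairs). Between knockout and WT Zbtb46-GFP+ cells they deviated oppositely (-0.554 to -0.424, 4 pairs), so the numbers were not taken to pair all samples. With 2 arrays per group the deviations within a group mirror each other. A pair and its mirror pair therefore hold the same correlation and are not separate evidence. The replicate block gave 4 members in the Batf3 KO step, 5 in Id2 KO and 8 in WT, and 1 in Id2 KO against WT (Itgam, adjusted p = 0.0332). It put above 0.05 the steps of Itgae (0.0822), Vcam1 (0.132) and Mfge8 in Id2 KO, of Itgb2l (0.0565) and Icam2 (0.0684) in Batf3 KO, and of Ltbp3 (0.0586), Tgfbr2 (0.128) and Vcam1 (0.18) in WT. A crossed pairing, added after seeing the data, gave 7 members in the Batf3 KO step, 2 in each knockout against WT and 1 between the knockouts. Centring on the 75th percentile moved the median of all genes to 0.16 in the WT step, -0.13 in Id2 KO against WT and -0.12 in the Id2 KO interaction, and the WT calls to 1153 higher and 858 lower, against 940 and 1272. In the Batf3 KO step it gave 859 higher and 512 lower, against 771 and 661. Quantile normalization called 2352 genes in the Batf3 KO step (1432 without it), 2372 in Id2 KO (1359), 118 in Batf3 KO against WT (67) and 669 in Id2 KO against WT (361). Between the knockouts it called 251 (118) and for the Id2 KO interaction 175 (64). With a term for the 3 arrays, 29 genes were called in Batf3 KO against WT, 207 in Id2 KO against WT, 5 and 0 in the CDP comparisons (10 and 5), and 8 and 20 for the interactions of Batf3 and Id2 (19 and 64). As labelled, the 15 arrays gave 1 gene in the WT step (2212) and 0 in the other comparisons. The replicate block gave 555 in Id2 KO against WT and 120 for the Id2 KO interaction, and the crossed pairing 3487, 3234 and 4829 in the Batf3 KO, Id2 KO and WT steps and 250 and 1212 in the knockouts against WT. Leaving out single arrays gave 642 to 1548, 488 to 1506 and 1183 to 2331 genes in those steps, and 33 to 96 and 120 to 357 in those knockouts. Trying other probe sets of a member was not possible, since each had 1. Dim probe sets (Itgae, Itgb8) have the least room above background.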
